A study of Homo sapiens with 27 samples.

Results

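The 10 genes described here encode receptors of the ERBB family, ligands of the EGF family and an inhibitor of these receptors. The receptors are EGFR, ERBB2 and ERBB3, the ligands are HBEGF, AREG, EREG, TGFA, BTC and NRG1, and the inhibitor is ERRFI1, also known as MIG6. They were taken by name from a table of 57165 genes, and all 10 were found in it and had enough counts to be tested in both cell lines. RNA was sequenced from SUM159 and MDA-MB-231, human cell lines of triple negative breast cancer, and the question was how their transcripts change when ZEB1, a repressor that maintains the mesenchymal state, is silenced. Wild type cells were not transduced. No gRNA cells carried pLV-KRAB, a lentiviral vector that expresses dCas9-KRAB from the human ubiquitin C promoter, and no targeting gRNA. ZEB1-targeted cells carried the same vector with gRNA 4 against the ZEB1 promoter, or with 4 such gRNAs together (All gRNA). Transduced cells were selected with puromycin. Each of the 9 groups had 3 libraries, labelled as biological replicates, and the study's methods describe them as individual clones.

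EGF-family ligands are made as membrane proteins and are cut free by ADAM proteases. They bind EGFR, ERBB3 or ERBB4, the receptors pair with each other and with ERBB2, and the signal runs through RAS, the ERK kinases and PI3K. ERBB2 has no known ligand of its own, and ERBB3 has little kinase activity, so both act in pairs. ERRFI1 binds the kinase domain of EGFR and blocks it, and several ligand genes and ERRFI1 are themselves induced by ERK signalling, so they are read as both inputs and outputs of the pathway. In basal and triple negative breast cancer, EGFR is the family member most often found at high level.

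Levels are given as CPM, the estimated counts of a gene scaled to a common library total by TMM, with the mean ± SD of 3 libraries. A gene was termed called where TREAT, limma's test against a log2 fold change of 1, gave a Benjamini-Hochberg adjusted p-value under 0.05 over all genes. It was said to pass the moderated test where limma's test of the same fit against 0 gave one under 0.05. The libraries held 15461200 to 21473757 estimated counts. SUM159 groups were sequenced in run 1 and MDA-MB-231 groups in run 2, with 3 further SUM159 wild type libraries in run 2. The labels of 6 MDA-MB-231 libraries disagree on the gRNA. Set 1 has gRNA 4 in its titles and the pool in its column names, set 2 has the reverse, and neither was assigned. ZEB1 was at 65.6 to 121.9 CPM in the wild type and No gRNA libraries and at 0.376 to 5.74 CPM in the targeted ones. In wild type and No gRNA cells the mesenchymal genes VIM, FN1 and AXL were at 171.9 CPM or more, but CDH2 and SPARC were abundant in SUM159 only, and in MDA-MB-231 they reached at most 0.488 and 4.62 CPM. The epithelial genes EPCAM and KRT19 reached at most 0.345 CPM in SUM159 but 10.9 to 14.3 and 159.6 to 175.7 CPM in MDA-MB-231, CDH1 was at most 1.02 CPM and ESRP1 at most 4.29 CPM. ESR1 and PGR reached at most 0.185 and 0.960 CPM. PTPRC, ALB and PECAM1, of blood, liver and endothelium, reached at most 0.294, 0.513 and 3.75 CPM. These are bulk libraries, in which fewer expressing cells and less RNA per cell cannot be told apart.

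On GRCh38 with GENCODE annotation, EREG (chr4:74365145-74388749, plus strand), AREG (chr4:74445136-74455005, plus strand) and BTC (chr4:74744759-74794523, minus strand) lie together, and with EPGN they are the only protein-coding genes lying wholly within their span of 486 kb. HBEGF is at chr5:140332843-140346603 on the minus strand and TGFA at chr2:70447284-70554193 on the minus strand. EGFR is at chr7:55019017-55211628, ERBB2 at chr17:39687914-39730426 and ERBB3 at chr12:56076799-56103505, all on the plus strand, and ERRFI1 is at chr1:8004404-8026309 on the minus strand. EGFR overlaps EGFR-AS1, ERBB2 overlaps PGAP3 and MIEN1, and NRG1 and ERRFI1 overlap other transcripts on the opposite strand. Whether the counting used strand is not given in the sources used here, so reads from such overlaps cannot be told apart.

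ZEB1 binds E-box sequences of the form CAGGTG, so the 250 bases before the start sites were searched in the RefSeq promoter table (GRCh38.p14), which holds 8 of the 10 genes in 10 windows and has no entry for ERBB3 and NRG1. The search was made with the results known, and a match describes letters, not binding. CAGGTG or its reverse complement CACCTG was found in windows of 5 of the 8 genes, AREG, EREG, HBEGF, TGFA and BTC, all of them ligands, and in 17.5% of all 35116 windows of this length. Here and below, counts out of 8 are of genes and percentages are of windows, and TGFA and EGFR each have a second window. The 4 below belong to the ligands that passed the moderated test in both targeted SUM159 groups and are given on the strand of the gene. Capitals mark CAGGTG or CACCTG, the CREB site TGACGTCA and the TATA box TATAAA, which do not overlap.
AREG: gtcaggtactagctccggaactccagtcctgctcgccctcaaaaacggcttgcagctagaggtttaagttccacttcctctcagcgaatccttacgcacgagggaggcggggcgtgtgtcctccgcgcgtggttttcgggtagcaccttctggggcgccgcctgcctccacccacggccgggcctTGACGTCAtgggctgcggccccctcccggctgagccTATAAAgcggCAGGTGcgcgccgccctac
EREG: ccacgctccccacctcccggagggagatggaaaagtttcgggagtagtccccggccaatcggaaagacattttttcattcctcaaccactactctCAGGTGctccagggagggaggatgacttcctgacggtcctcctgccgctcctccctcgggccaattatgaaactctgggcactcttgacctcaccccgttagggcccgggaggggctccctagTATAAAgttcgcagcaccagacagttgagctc
HBEGF: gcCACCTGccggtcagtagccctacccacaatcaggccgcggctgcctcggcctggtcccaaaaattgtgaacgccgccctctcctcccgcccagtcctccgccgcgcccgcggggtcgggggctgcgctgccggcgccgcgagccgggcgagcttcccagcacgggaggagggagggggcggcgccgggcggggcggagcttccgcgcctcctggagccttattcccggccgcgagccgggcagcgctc
TGFA: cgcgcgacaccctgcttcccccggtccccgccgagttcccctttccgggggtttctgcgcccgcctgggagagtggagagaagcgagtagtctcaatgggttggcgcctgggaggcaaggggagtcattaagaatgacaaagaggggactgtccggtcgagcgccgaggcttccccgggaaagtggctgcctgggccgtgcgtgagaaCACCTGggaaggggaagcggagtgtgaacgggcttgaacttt
The windows are chr4:74444886-74445135 and chr4:74364895-74365144 on the plus strand and chr5:140346604-140346853 and chr2:70553447-70553696 on the minus strand, the last before the second of 2 starts listed for TGFA. The window before the other TGFA start held no CAGGTG or CACCTG and is not shown. Counted back from the start site, the E-box began at position -19 in AREG, -155 in EREG, -248 in HBEGF and -42 in TGFA. In AREG the TATA box began at -29 and the CREB site at -65. EREG had its TATA box at -32. TGACGTCA was present in 1.65% of all windows and, of the 8 genes, in AREG alone, and TATAAA was present in 6.8% and, of the 8, in AREG, EREG and EGFR. The AP-1 site TGACTCA or TGAGTCA, in 4.2% of all windows, was found in EGFR alone, before its second listed start. The GC box GGGCGG or CCGCCC was found in 5 of the 8 genes and in 42.6% of all windows.

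Per kilobase of the canonical transcript, EGFR was the most abundant receptor in every group. In SUM159 wild type of run 1 it was at 47.6 CPM per kb, ERBB2 at 10.3 and ERBB3 at 0.0477, and in MDA-MB-231 wild type the values were 45.3, 9.92 and 0.618. Among the ligands EREG led in SUM159 wild type of run 1, at 133 CPM per kb against 23.3 for AREG, 16.4 for HBEGF, 12.3 for TGFA, 0.607 for NRG1 and 0.199 for BTC. In MDA-MB-231 wild type HBEGF led at 102 CPM per kb, with TGFA at 10.1, EREG at 8.79, AREG at 7.54, NRG1 at 5.94 and BTC at 0.386. ERRFI1 was at 128 CPM per kb in SUM159 wild type of run 1, 54.3 in that of run 2 and 141 in MDA-MB-231 wild type. Over the 9 groups, the ratio of the highest to the lowest group mean was 1.5 for ERBB2 and 3.52 for EGFR, between 4.49 and 16.0 for BTC, TGFA, ERRFI1, EREG and AREG, and 63.3, 80.9 and 100.3 for ERBB3, NRG1 and HBEGF.

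**Figure D1:**
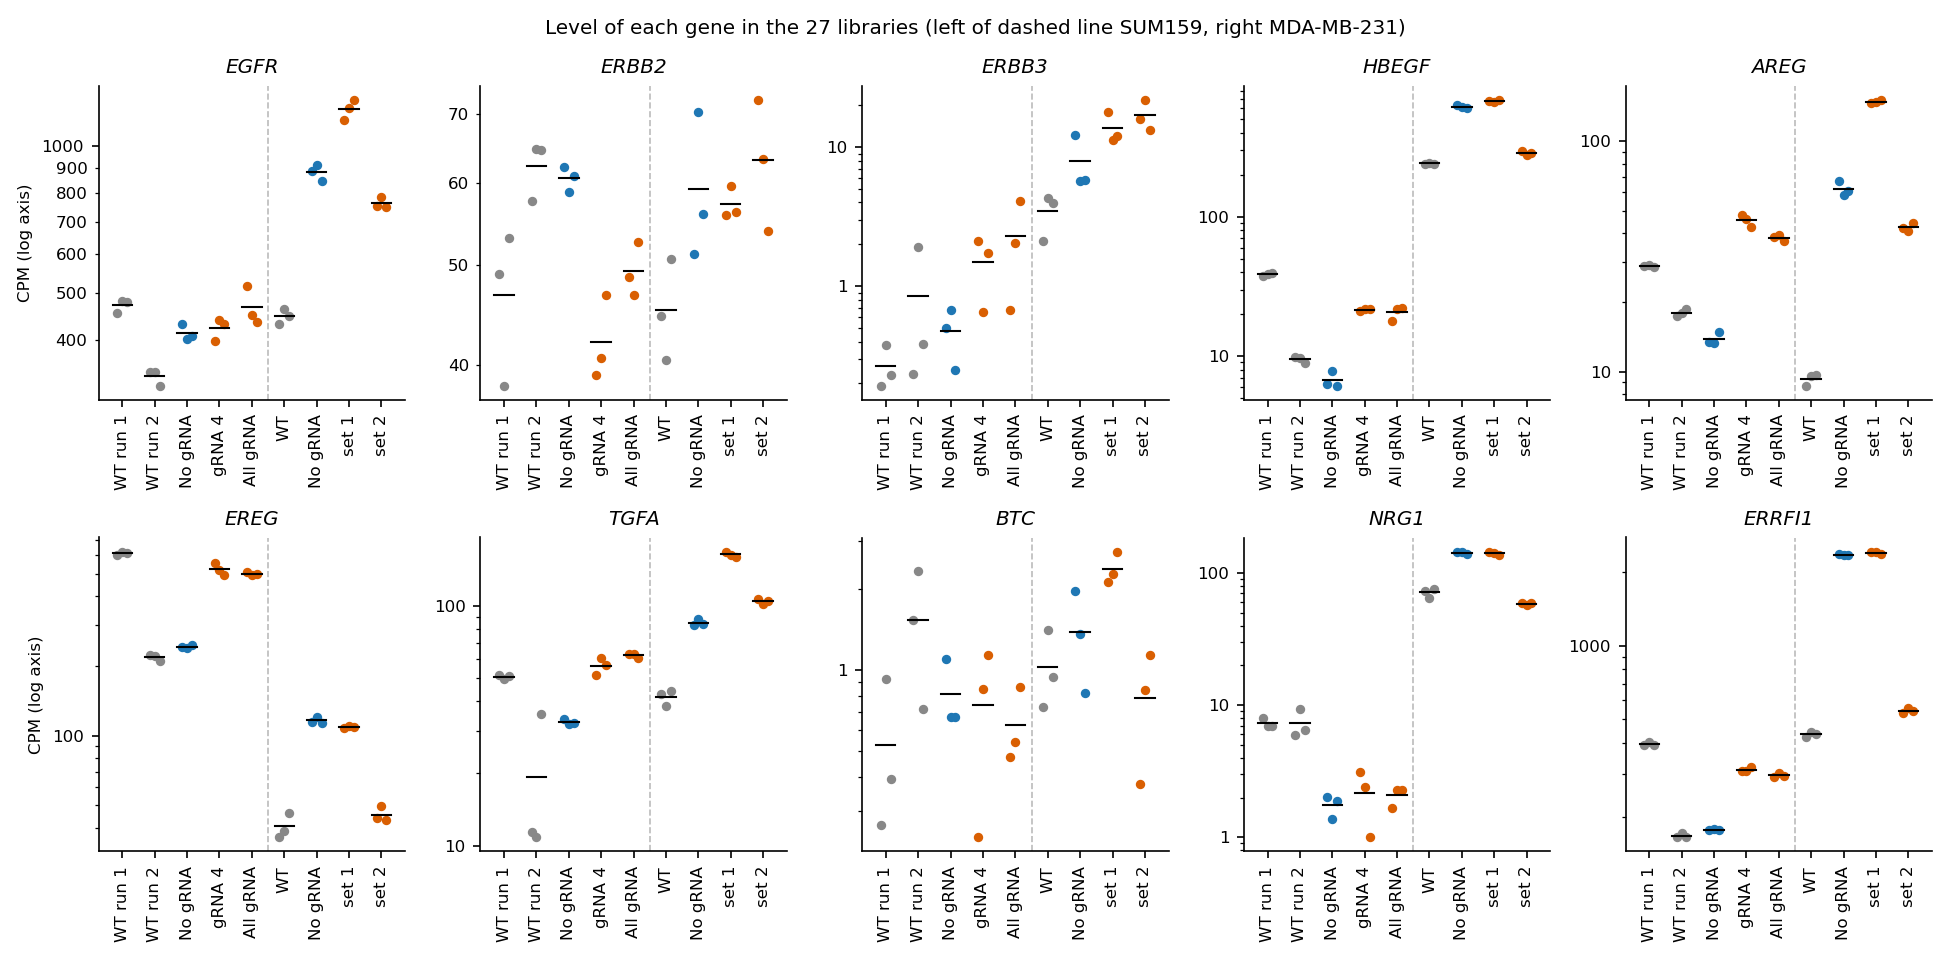
Level of each of the 10 genes in the 27 libraries, in CPM on a log axis with its own range in each panel; points are libraries, black bars are means of 3, grey marks wild type, blue No gRNA and orange ZEB1-targeted cells. ERRFI1 stood at 2346 to 2412 CPM in MDA-MB-231 No gRNA and set 1 and at 425 to 556 CPM in wild type and set 2, with no overlap.

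Among the 10 genes, silencing of ZEB1 in SUM159 came with more ERRFI1 and more of 4 of the 5 EGFR ligands, against No gRNA cells. AREG, HBEGF, EREG and TGFA rose, by 1.70-fold to 3.25-fold over the targeted groups, and ERRFI1 rose 1.66-fold and 1.74-fold, all passing the moderated test with both All gRNA and gRNA 4. No receptor was higher by either test. TREAT called 1 of the 10 genes with All gRNA (AREG) against 0.396% of all genes tested, and 2 with gRNA 4 (AREG and HBEGF) against 0.39%. The moderated test was passed by 5 genes with All gRNA, all higher, against 10.8% of all genes, and by 6 with gRNA 4, 5 higher and ERBB2 lower, against 11.0%. The median log2 fold change of the 10 was 0.83 with All gRNA and 0.78 with gRNA 4, where the medians over all genes were 0.00013 and -0.00067.

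AREG encodes amphiregulin, a ligand of EGFR alone. Its No gRNA libraries were at 13.4, 13.3 and 14.9 CPM, the All gRNA libraries at 38.6, 39.3 and 36.8 CPM and the gRNA 4 libraries at 48.0, 46.1 and 42.3 CPM. Every targeted library was above every No gRNA library and above every wild type library of run 1, which were at 28.8, 29.0 and 28.4 CPM. The log2 fold change against No gRNA was 1.46 with All gRNA (standard error, SE, 0.0851, TREAT adjusted p = 0.0299) and 1.70 with gRNA 4 (SE 0.0840, TREAT adjusted p = 8.56e-04). The call with All gRNA was lost when any 1 of the 6 libraries compared was left out (No gRNA replicates 1, 2 and 3 and All gRNA replicates 1, 2 and 3, with log2 fold changes of 1.43 to 1.51 and TREAT adjusted p = 0.0527 to 0.18), whereas that with gRNA 4 was kept in all 6 such fits. The All gRNA call was also lost without the filter on low counts (TREAT adjusted p = 0.0944) and in a fit of the compared groups alone (0.156).

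HBEGF encodes heparin-binding EGF, which binds EGFR and ERBB4. It was at 6.30, 7.80 and 6.14 CPM in No gRNA, 17.7, 21.9 and 22.0 CPM with All gRNA and 21.2, 21.7 and 21.7 CPM with gRNA 4. The lowest targeted library was thus above the highest No gRNA library, but all targeted libraries were below those of wild type in run 1, at 37.7, 38.9 and 39.4 CPM. The log2 fold change against No gRNA was 1.61 with All gRNA (SE 0.126, TREAT adjusted p = 0.0569) and 1.67 with gRNA 4 (SE 0.126, TREAT adjusted p = 0.0279), the second of which was called. Both sides of the threshold were reached by single choices. With All gRNA, HBEGF was called by edgeR and DESeq2 (adjusted p = 0.00455 and 0.00114), and by limma when replicate 1 of All gRNA was left out, which stands lowest of its group (log2 fold change 1.71, TREAT adjusted p = 0.0174). With gRNA 4 the call was lost without No gRNA replicate 1 or 3 (TREAT adjusted p = 0.184 and 0.196) and without gRNA 4 replicate 1, 2 or 3 (0.0739, 0.0860 and 0.0912), as well as without the filter on low counts (0.0677) and with the compared groups alone (0.0896).

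EREG, which encodes epiregulin, and TGFA, which encodes transforming growth factor alpha, changed less and were not called. EREG was at 242, 238 and 246 CPM in No gRNA, 508, 494 and 496 CPM with All gRNA and 555, 517 and 492 CPM with gRNA 4, and its log2 fold changes of 1.04 and 1.1 (SE 0.0482 and 0.0482) passed the moderated test (adjusted p = 1.43e-07 and 7.99e-08). TGFA was at 33.9, 32.3 and 32.6 CPM in No gRNA, 63.0, 63.3 and 60.8 CPM with All gRNA and 51.6, 60.9 and 56.6 CPM with gRNA 4. Its log2 fold changes were 0.92 and 0.76 (SE 0.0713 and 0.0726, moderated adjusted p = 6.76e-06 and 3.69e-05). For both genes the targeted and No gRNA libraries did not overlap.

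ERRFI1 was at 178, 178 and 177 CPM in No gRNA, 292, 301 and 295 CPM with All gRNA and 307, 308 and 319 CPM with gRNA 4. The groups were far apart for their spread, with log2 fold changes of 0.73 and 0.80 (SE 0.0381 for each, moderated adjusted p = 2.83e-07 and 1.19e-07), under the fold that TREAT asks for. NRG1, which encodes the ERBB3 ligand neuregulin 1, was low in all transduced SUM159 cells, at 1.01 to 3.10 CPM over 9 libraries, and its log2 fold changes of 0.24 and 0.16 had 95% intervals of -0.55 to 1.02 and -0.63 to 0.96. BTC, which encodes betacellulin, was under 1.14 CPM in every SUM159 library of run 1 and was the EGFR ligand that did not pass the moderated test (log2 fold changes -0.37 and -0.35, adjusted p = 0.735 and 0.753), with 95% intervals of -1.56 to 0.83 and -1.55 to 0.85, too wide at this depth to show a change of under 1 on the log2 scale.

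Of the receptors in SUM159, EGFR gave 0.17 on the log2 scale against No gRNA with All gRNA (95% interval 0.031 to 0.31, moderated adjusted p = 0.117) and 0.022 with gRNA 4 (95% interval -0.12 to 0.16, moderated adjusted p = 0.882). ERBB2 was at 60.7 ± 1.74 CPM in No gRNA, 49.3 ± 2.95 with All gRNA and 42.1 ± 4.09 with gRNA 4 (SD, n = 3). It fell with gRNA 4 (log2 fold change -0.54, SE 0.115, moderated adjusted p = 0.01), while -0.30 with All gRNA did not pass (adjusted p = 0.114). ERBB3 was close to the limit of detection. Its No gRNA libraries were at 0.504, 0.678 and 0.248 CPM, 4.41 to 11.3 estimated counts, and its targeted libraries at 0.678, 2.05 and 4.13 CPM with All gRNA and 2.10, 0.650 and 1.73 CPM with gRNA 4. The log2 fold changes of 1.98 and 1.54 had SEs of 0.770 and 0.801 and did not pass the moderated test (adjusted p = 0.131 and 0.26).

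Between gRNA 4 and All gRNA in SUM159, TREAT and the moderated test called 0 of the 10 genes, where the moderated test called 0.944% of all genes tested. At an unadjusted p under 0.05 the counts were 0 by TREAT and 3 by the moderated test, where 32 and 1737 of all 15147 genes tested passed, and edgeR's glmTreat and DESeq2 each called 0. AREG was higher with gRNA 4 by 0.24 on the log2 scale (95% interval 0.090 to 0.39, moderated adjusted p = 0.182). For HBEGF, EREG, TGFA and ERRFI1 the 95% intervals of the difference were -0.15 to 0.29, -0.044 to 0.15, -0.30 to -0.015 and -0.013 to 0.14. The largest estimate was that of ERBB3, -0.44 (95% interval -1.75 to 0.88). ERBB2 differed by -0.24 (-0.50 to 0.017) and EGFR by -0.15 (-0.29 to -0.0093). The intervals of BTC and NRG1, at low counts, were -1.23 to 1.27 and -0.84 to 0.69.

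**Figure D2:**
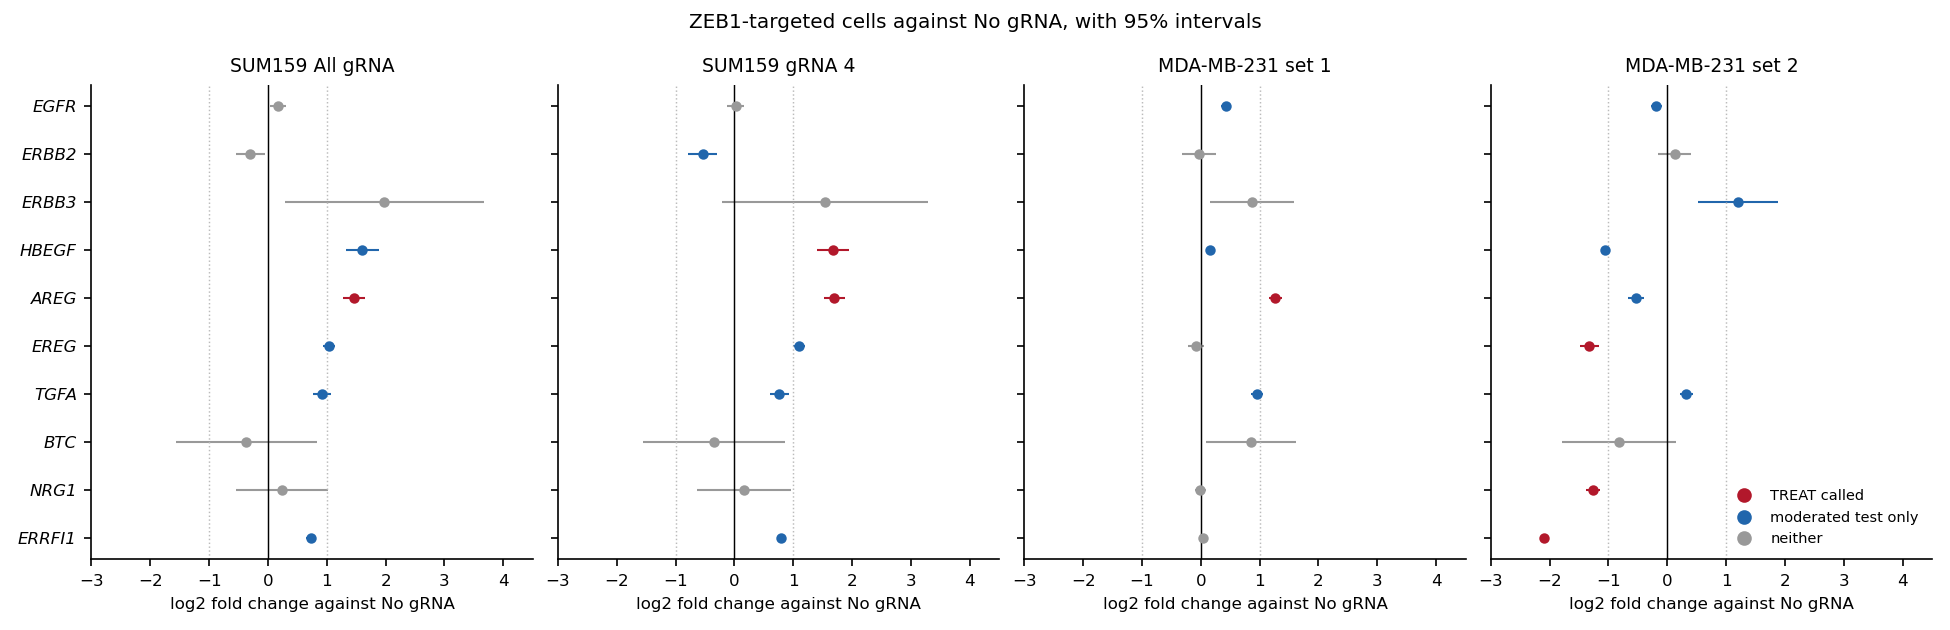
Log2 fold change of each gene against No gRNA of the same line, with 95% intervals from the limma fit, in a panel for each ZEB1-targeted group; red marks genes called by TREAT, blue those that passed the moderated test alone, grey the rest, and dotted lines stand at -1 and 1. In SUM159 the 4 ligands AREG, HBEGF, EREG and TGFA lie to the right of 0, while in MDA-MB-231 set 2 ERRFI1 lies at -2.09 and AREG, HBEGF, EREG and NRG1 lie to the left of 0.

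The No gRNA cells of SUM159 were themselves far from wild type in these genes. In No gRNA cells HBEGF was 5.78-fold lower than in wild type of the same run, EREG 2.54-fold and ERRFI1 2.25-fold lower, and all 3 were called. TREAT called 3 of the 10 against 1.53% of all genes, all lower, and the moderated test was passed by 8, 7 lower and ERBB2 higher, against 42.9%. The log2 fold changes were -2.53 for HBEGF (SE 0.118, TREAT adjusted p = 9.17e-06), -1.34 for EREG (SE 0.0469, TREAT adjusted p = 0.00116) and -1.17 for ERRFI1 (SE 0.0368, TREAT adjusted p = 0.0281). The ERRFI1 call was lost without any 1 of wild type replicates 1, 2 and 3 and No gRNA replicates 1, 2 and 3 (log2 fold changes of -1.18 to -1.16, TREAT adjusted p = 0.066 to 0.127), and with the compared groups alone (0.0991). AREG and TGFA were also lower, with log2 fold changes of -1.06 and -0.63 (moderated adjusted p = 2.61e-06 and 3.22e-05). NRG1 went from 7.96, 6.95 and 6.92 CPM in wild type to 2.02, 1.39 and 1.87 CPM in No gRNA, a log2 fold change of -2.05 (SE 0.300, moderated adjusted p = 2.15e-04, TREAT adjusted p = 0.117), which edgeR and a fit of the compared groups alone called (adjusted p = 0.0296 and 0.0365).

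The comparisons with No gRNA and of No gRNA with wild type share the No gRNA libraries, so their values are given side by side. Against wild type of run 1, TREAT called 0 of the 10 genes with All gRNA and 0 with gRNA 4, where 2.3% and 2.46% of all genes were called. At an unadjusted p under 0.05 by TREAT, 2 and 1 of them passed, where 918 and 869 of all 15147 genes tested did. Limma's moderated test was passed after adjustment by 7 and 6 of the 10, against 48.7% and 46.8% of all genes. Some directions turned with the control. HBEGF was below wild type, with log2 fold changes of -0.92 with All gRNA and -0.86 with gRNA 4 (moderated adjusted p = 7.12e-06 and 1.37e-05). EREG was below it as well, at -0.30 and -0.25 (adjusted p = 1.34e-04 and 5.87e-04), and so was ERRFI1, at -0.43 and -0.37 (adjusted p = 1.36e-06 and 5.30e-06). NRG1 stayed low, at -1.82 and -1.89 (adjusted p = 2.62e-04 and 2.56e-04). AREG alone of the 10 was above both controls in both targeted groups by the moderated test, at 0.40 and 0.64 against wild type (adjusted p = 7.03e-04 and 1.91e-05). TGFA was above wild type with All gRNA by 0.29 (adjusted p = 0.00316), and 0.13 with gRNA 4 did not pass (adjusted p = 0.129). ERBB3, at 0.193, 0.379 and 0.230 CPM in wild type, gave 2.70 with All gRNA (SE 0.840, moderated adjusted p = 0.0194) and 2.26 with gRNA 4, which did not pass (SE 0.868, adjusted p = 0.0502).

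HBEGF, EREG and ERRFI1 also differed between the sequencing runs of wild type SUM159 cells, whose labels give no other difference. In run 2, HBEGF was at 9.91, 9.68 and 8.87 CPM, EREG at 223, 219.5 and 211 CPM and ERRFI1 at 166, 173 and 166 CPM, each below every wild type library of run 1. Run 2 against run 1 gave log2 fold changes of -2.03 for HBEGF, -1.5 for EREG and -1.25 for ERRFI1 (TREAT adjusted p = 7.95e-06, 2.50e-06 and 1.51e-04). TREAT called 3 of the 10, all lower, against 6.47% of all genes, and the moderated test was passed by 8, 6 lower and 2 higher, against 58.8%. NRG1 did not follow, at 5.98, 9.41 and 6.48 CPM in run 2 and a log2 fold change of -0.034 (95% interval -0.52 to 0.45). TGFA was at 11.4, 10.9 and 35.5 CPM in run 2, where replicate 3 stands apart from the others. Its log2 fold change was -1.64 (TREAT adjusted p = 0.18) and without that library -2.20 (TREAT adjusted p = 6.00e-06). Differences of culture, extraction and sequencing cannot be told apart here.

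In MDA-MB-231, both sets of ZEB1-targeted libraries were compared with No gRNA, and they differed from each other. In set 1, AREG was 2.40-fold and TGFA 1.93-fold higher, while EREG, NRG1 and ERRFI1 were within 0.1 of No gRNA on the log2 scale. In set 2, ERRFI1 was 4.25-fold, EREG 2.50-fold, NRG1 2.40-fold and HBEGF 2.10-fold lower. TREAT called 1 of the 10 genes in set 1, AREG, against 1.47% of all genes, and 3 in set 2, ERRFI1, EREG and NRG1, all lower, against 4.14%. In set 1, 4 genes passed the moderated test, all higher, against 37.8%, and in set 2, 8 did, 2 higher and 6 lower, against 52.4%. The median log2 fold change of the 10 was 0.29 in set 1 and -0.67 in set 2, where those over all genes were -0.0080 and -0.012.

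ERRFI1 showed the sharpest split. Its wild type libraries were at 425, 443 and 438 CPM and those of set 2 at 533, 556 and 541 CPM, while No gRNA was at 2353, 2346 and 2347 CPM and set 1 at 2412, 2396 and 2364 CPM. Set 2 was lower than No gRNA, with a log2 fold change of -2.09 (SE 0.0206, TREAT adjusted p = 1.98e-11), and set 1 differed from No gRNA by 0.030 (95% interval 0.00088 to 0.060, moderated adjusted p = 0.0978).

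The ligands EREG, NRG1 and HBEGF were likewise higher in No gRNA and set 1 than in set 2 and wild type. EREG was at 114, 121 and 114 CPM in No gRNA, 108, 109.9 and 109 CPM in set 1, 44.1, 49.5 and 43.3 CPM in set 2 and 36.5, 38.8 and 46.4 CPM in wild type, so that set 2 overlapped wild type. NRG1, at chr8:31639222-32855666 on the plus strand, was at 145, 143 and 139 CPM in No gRNA, 144, 143 and 137 CPM in set 1, 58.9, 57.3 and 58.7 CPM in set 2 and 73.1, 64.8 and 75.7 CPM in wild type, so that set 1 overlapped No gRNA and set 2 was the lowest. Set 2 was lower than No gRNA, with log2 fold changes of -1.32 for EREG (SE 0.0753, TREAT adjusted p = 0.0181) and -1.26 for NRG1 (SE 0.0548, TREAT adjusted p = 0.00983). The EREG call was lost without No gRNA replicate 2 (TREAT adjusted p = 0.0801), set 2 replicate 1 (0.104) or set 2 replicate 3 (0.106), and the NRG1 call without set 2 replicate 2 (0.0591). Both were lost without the filter on low counts (0.0631 and 0.0671). HBEGF was at 629.5, 610.4 and 599 CPM in No gRNA and 296, 279 and 289 CPM in set 2, a log2 fold change of -1.07 that passed the moderated test (adjusted p = 2.16e-10) but missed the TREAT threshold (adjusted p = 0.341). In set 1 it was at 678, 667 and 686 CPM, higher by 0.15 (moderated adjusted p = 7.69e-04).

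AREG moved in opposite directions in the sets. Its libraries were at 67.3, 58.2 and 61.0 CPM in No gRNA, 147, 148 and 151 CPM in set 1 and 42.2, 40.8 and 44.2 CPM in set 2, with no overlap between the groups. The log2 fold change was 1.27 in set 1 (SE 0.0513, TREAT adjusted p = 0.0122) and -0.53 in set 2 (SE 0.0633, moderated adjusted p = 3.04e-05). The call in set 1 was lost without No gRNA replicate 2 (TREAT adjusted p = 0.0968) or 3 (0.0687), and with the compared groups alone (0.117). TGFA was the only ligand higher in both sets by the moderated test, at 83.3, 88.0 and 84.0 CPM in No gRNA, 168, 164 and 160.2 CPM in set 1 and 107, 102 and 105 CPM in set 2. Its log2 fold changes were 0.95 and 0.32 (SE 0.0473 and 0.0506, moderated adjusted p = 5.63e-08 and 2.50e-04). BTC stayed under 2.75 CPM in all MDA-MB-231 libraries, with log2 fold changes of 0.85 and -0.82 that did not pass (adjusted p = 0.0759 and 0.144).

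Of the receptors in MDA-MB-231, EGFR was at 886, 913 and 847 CPM in No gRNA, 1127, 1195 and 1239 CPM in set 1 and 754, 785 and 751 CPM in set 2. It rose in set 1 and fell in set 2, with log2 fold changes of 0.43 and -0.18 (moderated adjusted p = 7.35e-06 and 0.00385). ERBB3 was at 12.3, 5.67 and 5.77 CPM in No gRNA, 18.0, 11.3 and 12 CPM in set 1 and 15.9, 21.7 and 13.2 CPM in set 2. No gRNA replicate 1 overlapped set 1, and every library of set 2 was above every No gRNA library. Against No gRNA it was 1.2 in set 2 on the log2 scale (SE 0.313, moderated adjusted p = 0.00704) and 0.87 in set 1, which did not pass (SE 0.323, adjusted p = 0.0533). ERBB2 differed by -0.031 and 0.12, with 95% intervals of -0.32 to 0.26 and -0.16 to 0.41.

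No gRNA cells of MDA-MB-231 stood above wild type in these genes, where those of SUM159 stood below. AREG was 6.41-fold, ERRFI1 5.19-fold, EREG 2.76-fold and HBEGF 2.45-fold higher, all 4 called by TREAT, against 3.6% of all genes. The moderated test was passed by 7 of the 10, all higher, with TGFA, NRG1 and EGFR besides, against 53.8%. AREG went from 8.69, 9.59 and 9.62 CPM in wild type to the No gRNA level given above, a log2 fold change of 2.68 (SE 0.0921, TREAT adjusted p = 2.82e-07). HBEGF, at 239, 244 and 240.3 CPM in wild type, had 1.29 (SE 0.0312, TREAT adjusted p = 7.24e-05). For ERRFI1 the log2 fold change was 2.38 (TREAT adjusted p = 1.08e-11) and for EREG 1.47 (TREAT adjusted p = 0.00212). EGFR, at 432, 464 and 449 CPM in wild type, was higher by 0.92 (moderated adjusted p = 2.87e-08). The 4 TREAT calls were kept when each of the 6 libraries was left out.

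Against wild type of the line, in comparisons that share those libraries, TREAT called 6 of the 10 genes in set 1 against 8.42% of all genes, and 2 in set 2, AREG and TGFA, against 1.44%. The 6 in set 1 were AREG at 3.95, ERRFI1 at 2.41, TGFA at 1.93, HBEGF at 1.44, EREG at 1.38 and EGFR at 1.35 on the log2 scale. In set 2, AREG was at 2.15 (TREAT adjusted p = 1.62e-05) and TGFA at 1.30 (TREAT adjusted p = 0.016), whereas ERRFI1 was at 0.29, HBEGF at 0.22 and EREG at 0.14. AREG in set 2 stood above wild type and below No gRNA. ERBB3 had the highest log2 fold change of the 10 in set 2, 2.28 (SE 0.394, moderated adjusted p = 9.14e-04), and one of 1.95 in set 1 (SE 0.402, moderated adjusted p = 0.00135), and neither was called (TREAT adjusted p = 0.208 and 0.174). It had been at 2.12, 4.30 and 3.99 CPM in wild type.

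**Figure D3:**
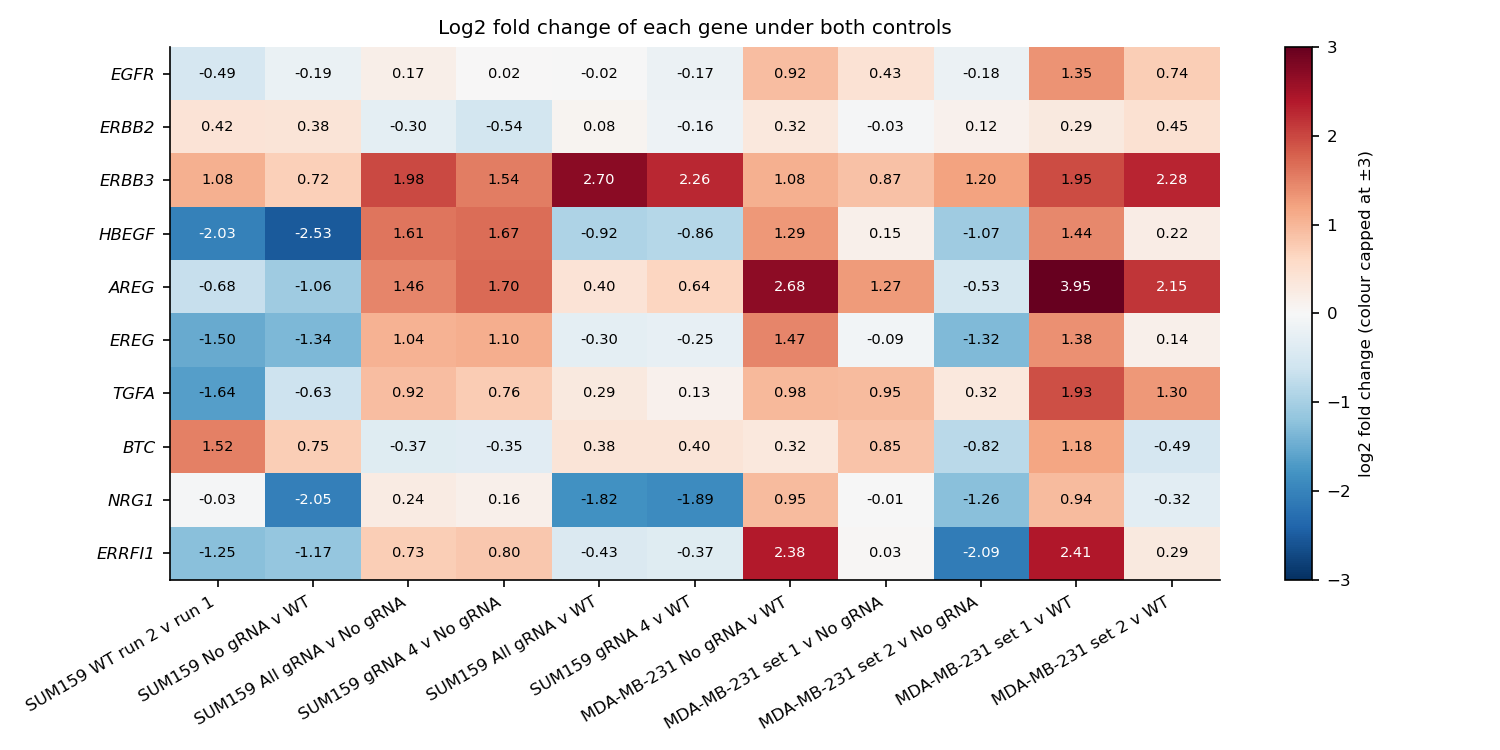
Log2 fold change of each gene (rows) in 11 comparisons (columns), printed in each cell and coloured from blue for lower to red for higher, capped at 3 in either direction. Comparisons of a line share its No gRNA or wild type libraries; HBEGF in SUM159 reads -2.03 between runs of wild type, -2.53 for No gRNA against wild type, 1.61 and 1.67 for targeted cells against No gRNA, and -0.92 and -0.86 for them against wild type.

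Compared directly, set 1 was above set 2 for every one of these genes that passed a test. TREAT called 4 of the 10, against 3.07% of all genes, ERRFI1 at a log2 difference of 2.12, AREG at 1.79, NRG1 at 1.26 and HBEGF at 1.21 (TREAT adjusted p = 3.13e-11, 2.76e-06, 0.0163 and 6.97e-04). By the moderated test there were 8, against 51.5%, with EREG at 1.24, TGFA at 0.63, EGFR at 0.62 and BTC at 1.67 besides. The NRG1 call was lost without set 1 replicate 1 (TREAT adjusted p = 0.102) or 2 (0.0883) and without set 2 replicate 1 (0.0624), 2 (0.0796) or 3 (0.0615), and without the filter on low counts (0.0850), and edgeR called EREG besides (adjusted p = 0.0352). ZEB1 itself was at 4.75 to 5.74 CPM in set 1 and 3.71 to 5.43 CPM in set 2.

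The lines differed in these genes before any transduction, as they did in most genes tested. Among wild type cells of run 2, SUM159 had 26.0-fold less HBEGF and 10.2-fold less NRG1 than MDA-MB-231, and 5.24-fold more EREG. TREAT called 4 of the 10, HBEGF, NRG1 and ERRFI1 lower in SUM159 and EREG higher, against 28.8% of all genes. The moderated test was passed by 9, 6 lower and 3 higher, against 73.0%, BTC being the exception (adjusted p = 0.433). The log2 differences were -4.70 for HBEGF, -3.34 for NRG1, 2.39 for EREG and -1.41 for ERRFI1 (TREAT adjusted p = 4.97e-13, 3.00e-09, 8.86e-10 and 1.39e-07). ERBB3 was lower in SUM159 (log2 difference -2.53, SE 0.791, moderated adjusted p = 0.0107), and edgeR called it (adjusted p = 0.0458). TGFA, at -1.38 (TREAT adjusted p = 0.274), was called without run 2 wild type replicate 3 of SUM159 (-1.94, TREAT adjusted p = 8.37e-06). Wild type SUM159 libraries of run 1 lie elsewhere for some of these genes, and their difference from MDA-MB-231, across runs, was not tested. HBEGF was at 38.7 ± 0.883 CPM in run 1 and 9.49 ± 0.545 CPM in run 2, against 241 ± 2.28 CPM in MDA-MB-231 wild type (SD, n = 3). ERRFI1 was at 397 ± 5.21 and 168 ± 3.82 CPM against 436 ± 9.44 CPM, so that in run 1 it lay close to MDA-MB-231. TGFA was at 50.8 ± 1.11 and 19.2 ± 14.1 CPM against 41.7 ± 3.21 CPM, above MDA-MB-231 in run 1 and below it in run 2. EREG was at 612 ± 8.74 and 218 ± 6.15 CPM against 40.6 ± 5.15 CPM, above MDA-MB-231 in both runs.

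The response to ZEB1 targeting, taken within each line as the mean of both targeted groups against No gRNA, was set against that of the other line in an interaction test over the libraries of both lines. For HBEGF the mean log2 fold change was 1.64 in SUM159 and -0.46 in MDA-MB-231, for EREG 1.07 and -0.71, and for ERRFI1 0.77 and -1.03. These 3 differed between the lines by TREAT, at 2.12, 1.80 and 1.82 (TREAT adjusted p = 5.26e-07, 3.12e-07 and 8.56e-13), where TREAT called 0.954% of all genes. The moderated test was passed by 7 of the 10, 6 with a larger response in SUM159 and ERBB2 with a smaller one, against 25.4%. For AREG the difference was 1.23 (TREAT adjusted p = 0.407, moderated adjusted p = 1.90e-09) and for EGFR -0.0045 (95% interval -0.14 to 0.13). For HBEGF, EREG and ERRFI1 the direction of the difference turned with the control. With wild type of each line in place of No gRNA, a test added after the data were seen, the difference was -1.76 for HBEGF and -1.79 for ERRFI1 (TREAT adjusted p = 1.08e-07 and 1.90e-13), both called with the larger value in MDA-MB-231, and -1.08 for EREG (TREAT adjusted p = 1, moderated adjusted p = 1.37e-09). AREG at -2.57, NRG1 at -2.21 and TGFA at -1.45 were called as well (TREAT adjusted p = 4.75e-10, 4.03e-04 and 2.89e-04), which makes 5 of the 10 against 3.1% of all genes. Line and run cannot be told apart in this test, and the mean over MDA-MB-231 joins sets that differed from each other.

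The rest of the pathway was read from 5 lists, which like the 10 genes were chosen with earlier results known. Of the 6 other family members, ERBB4, EGF, EPGN, NRG2, NRG3 and NRG4, 3 were tested in SUM159 and 2 in MDA-MB-231. EPGN, the ligand gene beside EREG, was at 2.34 ± 0.511 CPM in SUM159 No gRNA and 11.0 ± 0.781 with All gRNA (SD, n = 3), a called rise of 2.24 on the log2 scale (SE 0.242, TREAT adjusted p = 0.039). With gRNA 4 it was 2.08 (TREAT adjusted p = 0.0994), and in wild type of run 1 it was at 9.51 ± 2.63 CPM, so that against wild type the values were 0.23 and 0.070 (moderated adjusted p = 0.278 and 0.766). NRG2, a neuregulin gene, was at 2.83 ± 0.717 CPM in MDA-MB-231 No gRNA and 0.340 ± 0.0746 in set 1, a called fall (log2 fold change -2.93, TREAT adjusted p = 0.0258), and in set 2 its -1.90 passed the moderated test (adjusted p = 5.69e-04).

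The next list holds 6 genes, of iRhoms and of the shedding proteases that release the ligands from the membrane. TREAT called 0 of them, and 0 of the 18 adaptors and kinases below the receptors, against No gRNA in either line. At an unadjusted p under 0.05 by TREAT the counts were 0 as well. TREAT called 0.396% of all genes with All gRNA, 0.39% with gRNA 4, 1.47% in set 1 and 4.14% in set 2. Unadjusted, 223 and 243 of 15147 genes passed in SUM159, and 549 and 1275 of 15721 in MDA-MB-231. At these shares, counts of 0 say little about lists this short. By the moderated test 1 protease or iRhom gene was higher and 1 lower with All gRNA, 0 and 1 with gRNA 4, 1 and 1 in set 1, and 2 and 2 in set 2. Of the adaptors and kinases, 2 were higher and 1 lower with All gRNA, 1 and 0 with gRNA 4, 7 and 4 in set 1, and 7 and 3 in set 2. The test was passed by 10.8% of all genes with All gRNA, 11.0% with gRNA 4, 37.8% in set 1 and 52.4% in set 2. ADAM17, the main sheddase of AREG, HBEGF and TGFA, was lower in set 2 than in No gRNA (log2 fold change -0.58, moderated adjusted p = 3.93e-07). Its level was 196 ± 3.47 CPM in No gRNA and 129 ± 1.16 in set 2, but 108 ± 3.88 in wild type (SD, n = 3). Every library of set 2 was thus above every wild type library. Among 11 negative regulators, RNF41, a ubiquitin ligase known to act on ERBB3, was called lower in set 2, at 87.2 ± 2.58 CPM in No gRNA and 27.1 ± 1.58 in set 2 (log2 fold change -1.66, TREAT adjusted p = 7.99e-04). In wild type RNF41 was at 47.7 ± 3.61 CPM, between those levels. Of the 11, 8 were lower and 0 higher by the moderated test in set 2, 2 lower and 2 higher in set 1, 0 and 3 with All gRNA, and 1 and 2 with gRNA 4, to be read against the same shares of all genes. The list's median log2 fold change was -0.59 in set 2, where that over all genes was -0.012. The direction depended on the control. By the moderated test, 9 of the 11 were higher and 0 lower in MDA-MB-231 No gRNA than in wild type, against 53.8% of all genes. Set 2 had 4 higher and 2 lower than wild type, where 5709 of all 15721 genes passed. The list medians in these comparisons were 0.66 and 0.11.

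Of the 15 ERK feedback and target genes, 14 were tested in SUM159 and 15 in MDA-MB-231. With All gRNA 9 of 14 rose and 0 fell by the moderated test, and with gRNA 4 8 rose and 0 fell. In set 1, 5 rose and 5 fell, and in set 2, 2 rose and 11 fell. In those comparisons the moderated test was passed by 10.8%, 11.0%, 37.8% and 52.4% of all genes. The list's median log2 fold changes were 0.66, 0.39, -0.017 and -0.91 in that order, where those over all genes were 0.00013, -0.00067, -0.0080 and -0.012. EGR1, an early ERK target, was called in 3 of the 4 comparisons. It was at 8.54 ± 1.08 CPM in SUM159 No gRNA and 43.4 ± 3.38 and 41.6 ± 2.54 with All gRNA and gRNA 4 (log2 fold change 2.34 and 2.27, TREAT adjusted p = 7.13e-05 and 1.19e-04). In MDA-MB-231 the level was 393 ± 12.6 CPM in No gRNA cells, 619 ± 23.4 CPM for set 1 and 54.0 ± 2.42 CPM for set 2 (log2 fold change -2.84 in set 2, TREAT adjusted p = 3.64e-09). DUSP6, a phosphatase that acts on ERK, was called higher with All gRNA (1.54, TREAT adjusted p = 0.0233) and lower in set 2 (-1.56, TREAT adjusted p = 6.86e-08). PHLDA1 was called in the same directions, at 1.39 and -1.15 (TREAT adjusted p = 0.0143 and 0.00527). The phosphatase gene DUSP5 and the sprouty gene SPRY4 were called lower in set 2, at -1.5 and -1.54 (TREAT adjusted p = 1.01e-04 and 3.92e-05).

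In SUM159 No gRNA, 4 of 14 ERK feedback and target genes were called lower than in wild type and 0 higher, where TREAT called 1.53% of all genes. EGR1 was at 43.4 ± 1.54 CPM in wild type of run 1, and the log2 fold change of No gRNA against it was -2.35 (TREAT adjusted p = 1.91e-05). The others were PHLDA1 at -2.04, DUSP6 at -1.47 and FOSL1 at -1.31 (TREAT adjusted p = 9.44e-07, 0.0168 and 0.0038). Against wild type in place of No gRNA, the list split in the targeted SUM159 groups. By the moderated test 6 of 14 were higher and 4 lower with All gRNA, and 5 higher and 6 lower with gRNA 4, against 48.7% and 46.8% of all genes, and the list's median log2 fold changes were 0.029 and -0.060. EGR1 was at -0.011 and -0.082 against wild type (moderated adjusted p = 0.924 and 0.439) and PHLDA1 at -0.65 and -0.93 (moderated adjusted p = 1.82e-06 and 1.54e-07). In MDA-MB-231, No gRNA cells had 10 of 15 higher and 3 lower than wild type by that test, against 53.8% of all genes, with a list median of 0.54. Set 1 had 8 higher and 3 lower than wild type, and set 2 had 3 higher and 8 lower. In those comparisons 9348 and 5709 of all 15721 genes passed. TREAT called 4 higher and 1 lower in set 1 and 0 and 2 in set 2, against 8.42% and 1.44% of all genes. The list medians against wild type were 0.29 in set 1 and -0.21 in set 2. Between the wild type runs the list split, with log2 fold changes in run 2 of -2.23 for PHLDA1 and -0.90 for DUSP6, and of 0.34 for EGR1 and 4.47 for FOS (moderated adjusted p = 4.29e-12, 9.37e-07, 0.00132 and 4.97e-06).

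**Figure D4:**
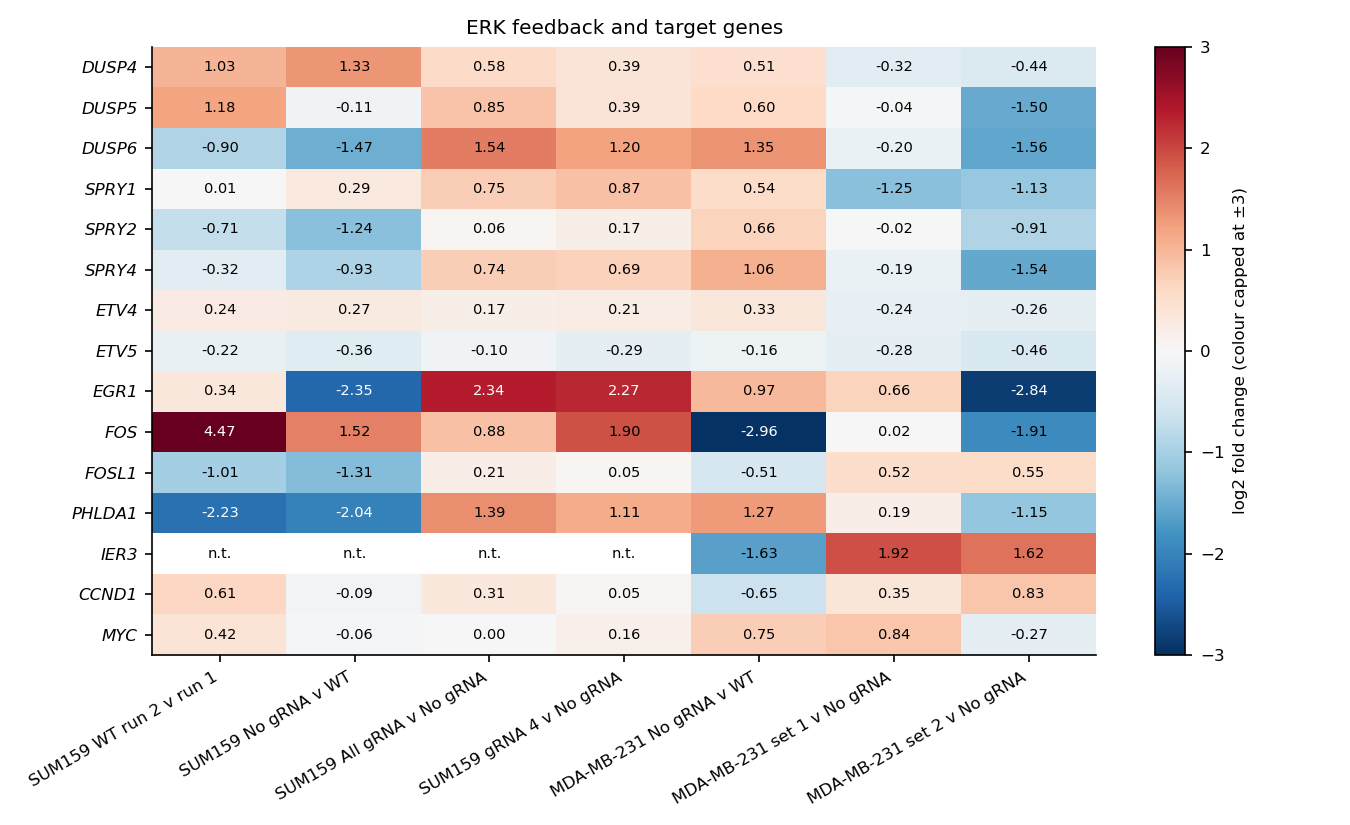
Log2 fold change of 15 ERK feedback and target genes (rows) in 7 comparisons (columns), printed in each cell and coloured from blue for lower to red for higher, capped at 3 in either direction; n.t. marks a gene too low to be tested in SUM159. EGR1 reads 2.34 and 2.27 in the targeted SUM159 groups and -2.84 in MDA-MB-231 set 2.

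The genes whose group means followed AREG and HBEGF most closely were sought among 13775 genes tested in both lines, by the Pearson correlation of mean log2 CPM over the 9 groups. For HBEGF they were PDLIM5 (r = 0.992), PHLDA1 (r = 0.991) and DUSP6 (r = 0.990). PHLDA1 and DUSP6 are also in the list of ERK feedback and target genes. Those for AREG included FBLIM1, which encodes a protein of cell adhesions (r = 0.968), and CDCP1, which encodes a membrane protein of the cell surface (r = 0.925). The groups of a line share a run, and for HBEGF the distance between the lines carries part of r. Within a line, r with HBEGF was 0.971, 0.961 and 0.924 for PDLIM5, PHLDA1 and DUSP6 over the 5 SUM159 groups, and 0.978, 0.998 and 0.958 over the 4 MDA-MB-231 groups. With AREG, r was 0.970 and 0.848 for FBLIM1 and CDCP1 over the SUM159 groups, and 0.966 and 0.986 over the MDA-MB-231 groups.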

How the data were processed

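RNA from 27 libraries in 9 groups of 3 was sequenced as 50 bp single-end reads. The authors quantified transcripts with Salmon on GRCh38, as the submitters' processing notes name them, summarised them to genes with tximport, and deposited estimated counts per gene scaled by transcript length. The Salmon version, the annotation and the strand setting are not given in the sources used here. IDs were matched to GENCODE release 44 for symbols and positions (56347 of 57165). Library totals were 15461200 to 21473757 estimated counts.

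From these values, genes with low counts were removed with filterByExpr (minimum count 10) and totals were scaled by TMM, within the libraries of each fit. Fits were made within a line, except those for the wild type lines and for the difference of the response, which held libraries of both lines. Voom and limma 3.58.1 were run in R 4.3.3, with edgeR 4.0.16. TREAT tested against a log2 fold change of 1, a value chosen here because the study's methods name TREAT without its threshold, and p-values were adjusted over all genes tested by Benjamini and Hochberg. The libraries are labelled as biological replicates, and p-values measure the spread between them. Whether those of a group came from separate transductions or cultures is not given in the sources used here. The p-values therefore may not cover differences between transductions or cultures. ERRFI1 was at 178 ± 0.536 CPM in SUM159 No gRNA, while wild type SUM159 was at 397 ± 5.21 in run 1 and 168 ± 3.82 in run 2. The steps were tested on simulated data. The 10 genes, the pathway lists and the rule for named genes were chosen with earlier results of these data known. Named were all 10 genes, every listed pathway gene called against No gRNA, and the 3 genes most like AREG and HBEGF over the groups, of which 1 is not reported here. Other pathway genes (ADAM17, FOSL1, FOS) were named after their values were seen. Alternatives were the moderated test, TREAT at a fold of 1.2, edgeR's glmTreat and DESeq2 1.42.0 on counts rounded to whole numbers, DESeq2 size factors, no filter, only the groups compared, a replicate block, wild type as the control (for the difference between the lines, added after the data were seen) and leaving out each library.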

Additional observations from a re-analysis of the deposited data

Results flagged for a closer look

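These 3 genes are listed because their response to ZEB1 targeting differed between the lines by a test of the difference itself. On the log2 scale, the response in SUM159 less that in MDA-MB-231 was 2.12 for HBEGF (standard error 0.106, TREAT adjusted p = 5.26e-07), with mean responses of 1.64 and -0.46. It was 1.80 for EREG (standard error 0.0725, TREAT adjusted p = 3.12e-07), with mean responses of 1.07 and -0.71, and 1.82 for ERRFI1 (standard error 0.0322, TREAT adjusted p = 8.56e-13), with mean responses of 0.77 and -1.03. With No gRNA as the control, all 3 calls were kept in each of the 18 fits that left out one library. In SUM159 the No gRNA libraries were lower than wild type for these genes (log2 fold changes -2.53, -1.34 and -1.17) and in MDA-MB-231 they were higher (1.29, 1.47 and 2.38). With wild type of each line as the control, a test added after the data were seen, the difference took the opposite sign, at -1.76, -1.08 and -1.79 (TREAT adjusted p = 1.08e-07, 1 and 1.90e-13). The log2 fold changes against wild type were -0.92 and -0.86 for HBEGF with All gRNA and gRNA 4 and 1.44 and 0.22 in sets 1 and 2. For EREG they were -0.30, -0.25, 1.38 and 0.14 in the same order, and for ERRFI1 -0.43, -0.37, 2.41 and 0.29. Line and sequencing run cannot be told apart.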

How the results depend on the processing

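The 10 genes in 11 comparisons gave 110 results, for which 1678 values under alternatives were computed. Of these 1494 kept direction and side of the threshold, 42 lost the call with the direction kept, 86 gained it and 56 changed direction, 28 of the last with wild type in place of No gRNA. The causes were not tested unless the alternative's construction gives them. With limma's moderated test against 0, which asks for no fold, 5, 6, 4, 8, 8, 7, 8, 9, 8 and 7 of the 10 genes were called, in the order All gRNA, gRNA 4, set 1 and set 2 against No gRNA, No gRNA against wild type in SUM159 and in MDA-MB-231, set 1 against set 2, the wild type lines, the wild type runs and the difference between the lines. With TREAT at a fold of 1.2 they were 5, 5, 3, 6, 6, 7, 8, 8 and 6 in the same order, without the last. The shares of all genes are given above for the moderated test and for wild type as the control. For the other alternatives they are not given here, so those counts show only how calls moved with the setting. For All gRNA, edgeR and DESeq2 each called 2, and no filter on low counts, a fit of the compared groups alone and the replicate block each called 0. For gRNA 4, no filter and the compared groups alone each called 1, for set 1 the compared groups alone called 0, and for set 2 no filter called 1. Wild type as the control gave 0 calls for All gRNA, 0 for gRNA 4, 6 for set 1 and, as an alternative added after the data were seen, 5 for the difference between the lines. With one library left out, the counts ran from 0 to 1 for All gRNA, 1 to 2 for gRNA 4, 0 to 1 for set 1, 2 to 3 for set 2, 2 to 2 for No gRNA against wild type in SUM159, 4 to 4 in MDA-MB-231, 0 to 0 for gRNA 4 against All gRNA, 3 to 4 for set 1 against set 2, 4 to 5 for the lines, 3 to 4 for the runs and 3 to 3 for the difference between the lines.

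Against wild type the log2 fold changes that turned were, with All gRNA, EGFR -0.023, ERBB2 0.083, HBEGF -0.92, EREG -0.30, BTC 0.38, NRG1 -1.82 and ERRFI1 -0.43; with gRNA 4, EGFR -0.17, HBEGF -0.86, EREG -0.25, BTC 0.40, NRG1 -1.89 and ERRFI1 -0.37; in set 1, ERBB2 0.29, EREG 1.38 and NRG1 0.94; in set 2, EGFR 0.74, HBEGF 0.22, AREG 2.15, EREG 0.14 and ERRFI1 0.29; and for the difference between the lines, HBEGF -1.76, AREG -2.57, EREG -1.08, TGFA -1.45, BTC 0.0017, NRG1 -2.21 and ERRFI1 -1.79. With no filter NRG1 in set 1 was 0.0046, and in gRNA 4 against All gRNA it was 0.075 by edgeR and 0.080 by DESeq2. Leaving out one library turned uncalled values only, which ran for gRNA 4 against No gRNA from -0.0057 to 0.062 (EGFR), -0.77 to 0.29 (BTC) and -0.17 to 0.63 (NRG1), for set 1 from -0.13 to 0.093 (ERBB2) and -0.023 to 0.016 (NRG1), for gRNA 4 against All gRNA from -1.12 to 0.16 (ERBB3), -0.034 to 0.12 (HBEGF), -0.41 to 0.66 (BTC) and -0.41 to 0.39 (NRG1), for the runs from -0.23 to 0.10 (NRG1) and for the difference between the lines from -0.044 to 0.025 (EGFR). ERBB3 gave no value in the compared groups alone for SUM159 No gRNA against wild type and for the runs, where it did not pass the filter. Libraries that share a replicate number did not deviate together over all genes (24 correlations over 8 comparisons, -0.065 to 0.045). Such deviations hold counting noise, so these values cannot exclude a pairing that touches some genes. Under the replicate block AREG with All gRNA had a TREAT adjusted p = 0.0646 and ERRFI1 in SUM159 No gRNA against wild type one of 0.0714. Both were called without the block. Low counts limit BTC, and ERBB3 and NRG1 in SUM159.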

Other observations

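Between gRNA 4 and All gRNA in SUM159, RNF41, the ubiquitin ligase gene called lower in MDA-MB-231 set 2, passed the moderated test (log2 fold change -0.70, adjusted p = 0.00174). FOS, an early ERK target, was at 1.26 ± 0.592 CPM in SUM159 wild type of run 1 and 26.9 ± 4.62 CPM in that of run 2 (SD, n = 3), a called difference of 4.47 on the log2 scale (TREAT adjusted p = 2.95e-04).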
